A study of Prunus dulcis and Prunus persica and Prunus persica x Prunus dulcis with 15 samples.

Results

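The almond genome carries 10432 miniature inverted-repeat transposable elements (MITEs) in the deposited methylation table, and their DNA methylation is described here family by family in the F1 hybrid MB 1.37 and in almond. They were taken as the transposable elements (TEs) whose name holds a fam number and is not that of a long terminal repeat (LTR) retrotransposon. They make up 29.2% of the 35676 TEs listed. The number after fam was read as the family, which gives 120 families, and no fam number was shared between differently named families. The 25 families with at least 30 copies covered in almond hold 8138 copies, or 78.0% of all listed MITEs, and 83.0% of the covered ones.

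Leaves of the hybrid, of almond (Prunus dulcis cv Texas) and of peach (Prunus persica cv Early Gold) were compared, with 2 whole genome bisulphite sequencing libraries per genotype. All were fully expanded leaves of field trees picked at the end of September, and the hybrid is a single interspecific F1 genotype. Hybrid reads come from both the almond and the peach subgenome, and were aligned to the almond genome with settings relaxed so that reads of either subgenome could map, so a hybrid value on an almond MITE can mix both parental copies. The table gives, for each TE and genotype, 1 percentage in each sequence context, that is CG, CHG or CHH, with both libraries already combined and without the coverage behind it. No difference between the genotypes can therefore be set against the spread between libraries, and no test was run. The SD printed with a mean is the spread over MITE copies, which are not replicates of a genotype.

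MITEs are short DNA transposons that have kept terminal inverted repeats but encode no transposase, so they move only with enzymes supplied by other elements. They reach high copy numbers in plants and often lie close to genes. Plant cytosines can be methylated at CG, CHG and CHH sites (H stands for A, C or T). CG methylation is copied by a maintenance methyltransferase when DNA replicates, CHG methylation is kept by chromomethylases, and CHH methylation has to be set anew, by the small RNA pathway known as RNA-directed DNA methylation or by a chromomethylase in heterochromatin. Short TEs near genes are known as targets of the small RNA pathway in plants.

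The listed MITEs measured 182 to 803 bp, with a median of 334.5 bp, against 1164 bp for the other TEs. In the hybrid 2656 MITEs (25.5%) had a percentage in at least 1 context, and in almond 4575 (43.9%) had one. The other TEs were covered more often, 65.8% in the hybrid and 77.2% in almond. Only uniquely aligned reads were kept, and the part of repeat content or length in this gap was not tested. Of the covered MITEs, 162 had a value in the hybrid and none in almond.

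MITEs were highly methylated in CG, and their CHH methylation lay well above that of the other TEs. In CG they averaged 89.9% ± 13.7 in the hybrid (n = 2187) and 90.0% ± 14.0 in almond (n = 3751). In CHG they averaged 68.0% ± 20.1 in the hybrid (n = 2179) and 66.8% ± 20.9 in almond (n = 3818). Both contexts were close to the LTR retrotransposons, which averaged 89.1% in the hybrid and 89.9% in almond in CG and 63.9% in the hybrid and 64.4% in almond in CHG.

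CHH methylation of MITEs averaged 35.3% ± 23.3 in the hybrid (n = 2625) and 36.0% ± 25.1 in almond (n = 4512). The TEs that are not MITEs averaged 11.5% ± 11.6 in the hybrid and 11.8% ± 13.2 in almond. The MITE distribution was wide: the middle copies lay between quartiles of 17.5% and 51.3% in the hybrid and between 15.4% and 55.8% in almond. CHH exceeded 60% in 18.2% of MITEs in the hybrid and in 21.4% in almond. Of the other TEs, 1.30% in the hybrid and 2.13% in almond did so. The other TEs, here and below, include LTR records that share bases with MITEs, so the groups are not fully separate.

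Family accounted for 54.1% of the variance of CHH over almond MITEs, for 37.8% of that of CHG and for 26.8% of that of CG. These shares take in all families with a value, also those with few copies, and were not adjusted for the number of families. Among the 25 families the almond CHH mean ran from 16.6% to 80.8%, with 5 families at 60% or more, 10 between 40% and 60%, 2 between 30% and 40% and 8 under 30%. The families kept nearly the same order in the hybrid, with a Spearman rho of 0.931 over 25 families for CHH, 0.967 over 20 for CHG and 0.605 over 20 for CG. These correlations are descriptions over families that share the libraries and the alignment.

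**Figure D1:**
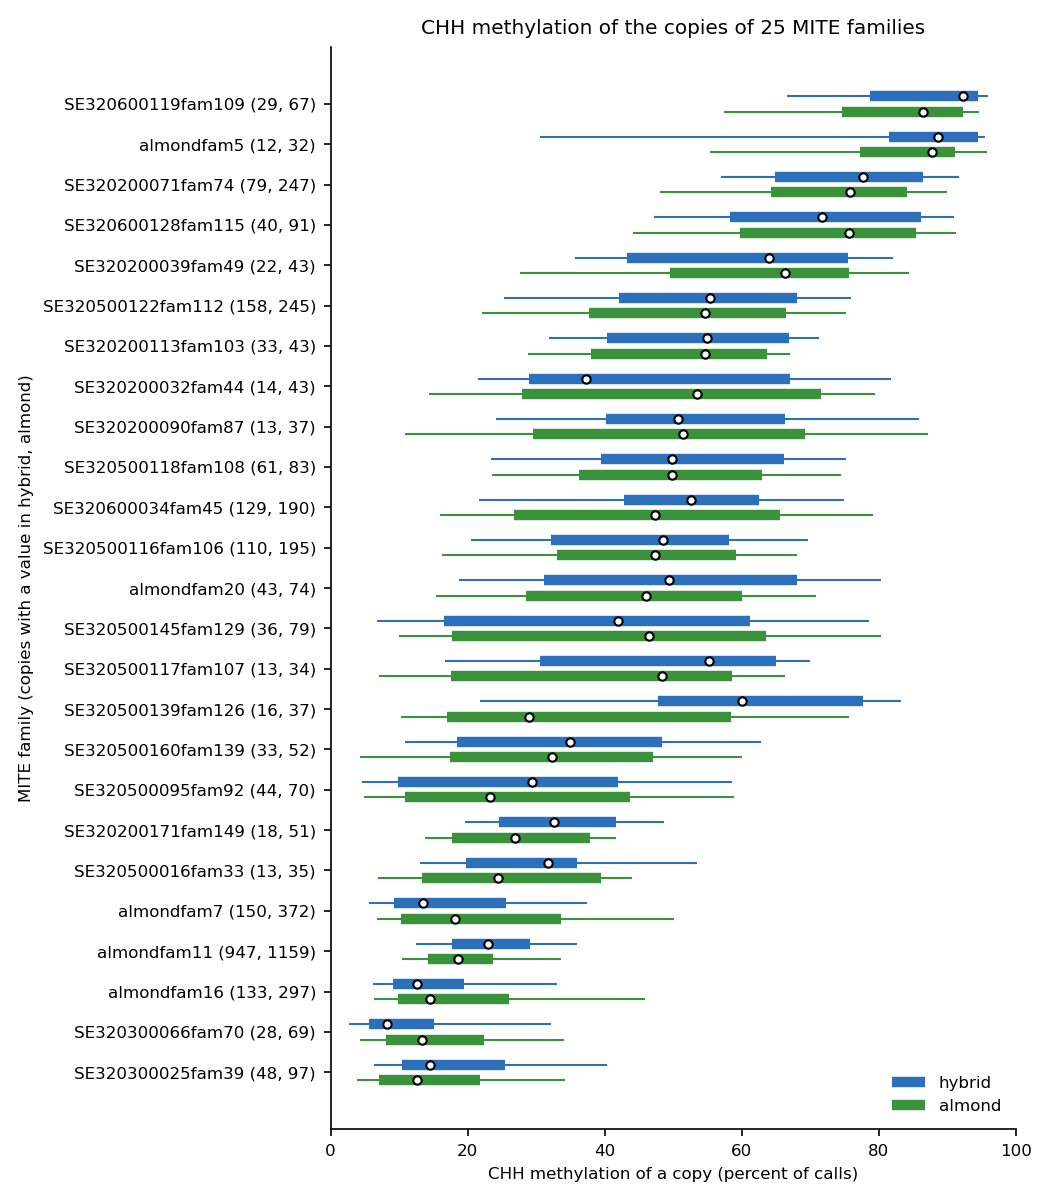
CHH methylation of single copies in the 25 MITE families, in percent of methylated calls, with the hybrid above almond in each pair. White points are medians, thick bars the quartiles and thin lines the range from the 10th to the 90th percentile over copies; the numbers of copies are beside the names. Families run by falling almond mean, from SE320600119fam109 at 80.8% to SE320300025fam39 at 16.6%, and the hybrid follows the same order closely.

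The families with the highest CHH were mostly short. SE320600119fam109, with a median length of 212.5 bp, averaged 84.2% ± 16.9 in the hybrid (n = 29) and 80.8% ± 15.9 in almond (n = 67). The almond family almondfam5, of 232 bp, averaged 78.5% ± 25.9 in the hybrid (n = 12) and 79.9% ± 18.7 in almond (n = 32). SE320600128fam115, of 201 bp, averaged 70.0% ± 17.7 in the hybrid (n = 40) and 71.9% ± 17.8 in almond (n = 91). In these 3 families CHG was also high, between 80.4% and 85.9% in the hybrid and between 84.3% and 85.8% in almond.

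SE320200071fam74 was the longest of the 5 highest, at 353 bp, and the one with most copies. It averaged 75.1% ± 15.9 in the hybrid (n = 79) and 72.3% ± 16.5 in almond (n = 247). Its lowest almond copy still had 16.8%, and 79.8% of its almond copies lay over 60%. SE320200039fam49, of 207 bp, averaged 59.3% ± 20.2 in the hybrid (n = 22) and 61.4% ± 20.2 in almond (n = 43). Across the 25 families, however, median length and CHH in almond were only weakly related, with a rho of -0.28.

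At the other end, SE320300025fam39 averaged 20.9% ± 17.9 in the hybrid (n = 48) and 16.6% ± 14.6 in almond (n = 97). SE320300066fam70 averaged 13.3% ± 13.2 in the hybrid (n = 28) and 17.4% ± 14.3 in almond (n = 69). Both are long families, of 583 and 568 bp. The other 3 of the lowest 5 were the most numerous families of all, almondfam11, almondfam7 and almondfam16, which are short.

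With 1319 listed copies of a median of 273 bp, almondfam11 averaged 24.3% ± 10.5 CHH in the hybrid (n = 947) and 20.6% ± 10.3 in almond (n = 1159). Next, almondfam7 (1152 copies) averaged 18.8% ± 14.2 in the hybrid (n = 150) and 23.7% ± 18.2 in almond (n = 372). The third, almondfam16 (1012 copies), averaged 17.2% ± 14.4 in the hybrid (n = 133) and 20.5% ± 16.7 in almond (n = 297). These families are low in CHH only by the measure of MITEs, since each mean lay above those of the other TEs. Copies of almondfam7 and almondfam16 often shared bases with a copy of either family, 890 of almondfam7 and 754 of almondfam16, so their records are not independent.

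Families of middling CHH held very different copies. In SE320600034fam45, with 480 copies, CHH averaged 51.0% ± 19.7 in the hybrid (n = 129) and 47.0% ± 23.2 in almond (n = 190), and single almond copies lay between 2.32% and 91.1%. The SD over copies within a family in almond lay between 10.3 and 27.0 points. The smallest was that of almondfam11.

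CG varied less between families, and 21 of the 25 almond means lay over 85%, of which SE320500117fam107 and SE320200032fam44 rest on 5 copies each. The lowest CG was that of SE320500095fam92, 67.5% ± 34.9 in the hybrid (n = 30) and 64.4% ± 34.1 in almond (n = 45), followed in almond by SE320500016fam33, with 80.4% ± 26.4 in the hybrid (n = 6) and 67.0% ± 29.2 in almond (n = 28). In the hybrid the next lowest were instead SE320200071fam74, at 70.4% over 8 copies, and SE320500145fam129, at 72.8% over 25. Of the 45 almond copies of SE320500095fam92, 8 (17.8%) had less than 20% CG. Over its copies CG and CHG had a rho of 0.834 (n = 43), against a median of 0.0849 over the 16 families with 30 or more copies that had both values.

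**Figure D2:**
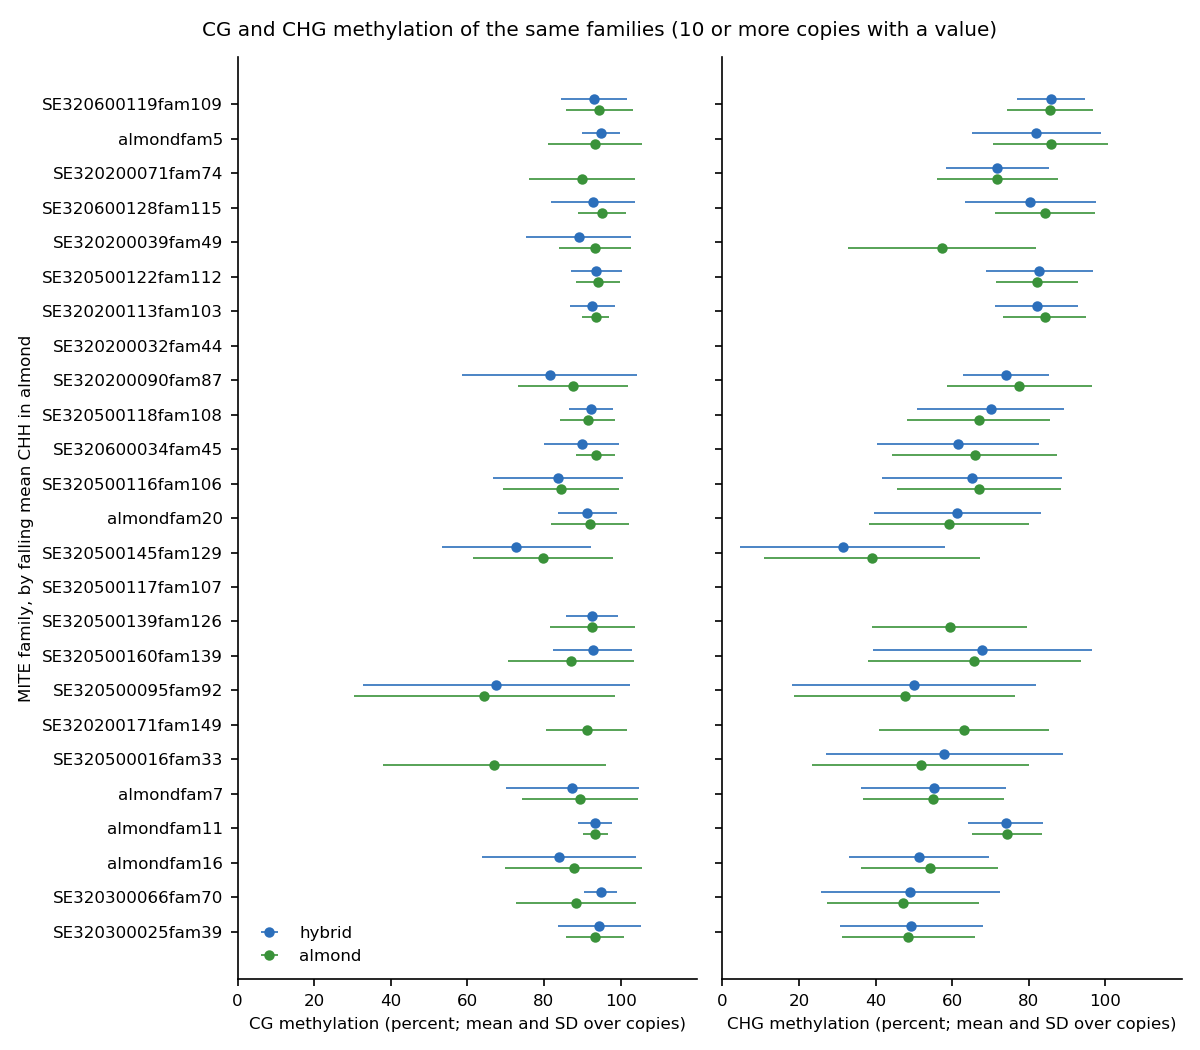
CG (left) and CHG (right) methylation of the same families in percent, as means with the SD over copies, hybrid above almond; an SD bar can pass 100% although no copy does. A genotype with under 10 copies with a value is left out. In CG most means lie close to 90%, with SE320500095fam92 and SE320500016fam33 lowest in almond, while CHG spreads from 39.1% to 85.8% in almond.

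CHG separated the families less widely than CHH. The highest CHG in almond was that of almondfam5, 81.9% ± 16.8 in the hybrid (n = 11) and 85.8% ± 15.0 in almond (n = 32), beside SE320600119fam109, with 85.9% ± 8.86 in the hybrid (n = 26) and 85.6% ± 11.3 in almond (n = 66), the higher of both in the hybrid. The lowest was that of SE320500145fam129, 31.4% ± 26.7 in the hybrid (n = 27) and 39.1% ± 28.3 in almond (n = 54), then SE320300066fam70, with 49.0% ± 23.3 in the hybrid (n = 20) and 47.1% ± 19.8 in almond (n = 59). Over the families CHG and CHH had a rho of 0.712 in almond, and CG and CHH one of 0.421. Copies with more CHG also had more CHH in each of the 20 families with 30 or more such copies in almond, with rho from 0.103 to 0.753.

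In most TEs CHH lies below CHG, and in some MITE families it did not. CHH exceeded CHG in 197 of 2162 MITEs (9.11%) in the hybrid and in 360 of 3774 (9.54%) in almond, against 2.72% of the other TEs in the hybrid and 2.70% in almond. In SE320200071fam74 this held for 22 of 32 copies in the hybrid (68.8%) and for 63 of 115 in almond (54.8%). In SE320500145fam129 it held for 30 of 52 almond copies (57.7%). The most numerous family was the opposite: almondfam11 had 1 such copy of 900 in the hybrid and 0 of 1134 in almond.

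The MITE label was checked against the other records of the table. A base was shared with an LTR retrotransposon record by 2460 MITEs (23.6%), and 1884 (18.1%) lay at least 80% inside one. Of these 2460, 80.9% belonged to almondfam11, SE320200071fam74 and SE320600034fam45, and outside these 3 families 6.16% of MITEs shared a base. The study's published annotation, of which only a part was used here, nonetheless lists these names as MITEs.

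The overlap took a different form in each family. In almondfam11, 1020 of 1319 copies (77.3%) lay at least 80% inside an LTR record, and those records had a median length of 616 bp. In SE320200071fam74, 601 of 1000 copies and their LTR record covered at least 80% of each other, so that nearly the same stretch is listed once as a MITE and once as an LTR element. Copies of SE320600034fam45 mostly overlapped an LTR record in part, with a median of 66.4% of the copy inside. All these LTR records stayed in the backgrounds of other TEs and of all TEs, and their part in those values was not tested.

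Copies with and without such an overlap differed by under 3 points in almondfam11. Its overlapping copies averaged 24.0% ± 10.1 CHH in the hybrid (n = 778) and 20.1% ± 9.65 in almond (n = 959), and its other copies 25.9% ± 12.2 in the hybrid (n = 169) and 22.9% ± 12.5 in almond (n = 200). The gap was wider in SE320600034fam45, whose overlapping copies averaged 54.0% in the hybrid (n = 94) and 49.6% in almond (n = 132), and its other copies 43.1% in the hybrid (n = 35) and 41.2% in almond (n = 58). In SE320200071fam74 the overlapping copies averaged 75.7% in the hybrid (n = 60) and 74.0% in almond (n = 185), and the other copies 73.3% in the hybrid (n = 19) and 67.5% in almond (n = 62). The family almondfam11 lay above LTR retrotransposons as a whole, which averaged 13.2% CHH in the hybrid and 13.5% in almond. That LTR average includes the records in which almondfam11 copies lie. Whether these records are MITEs, solo LTRs or another element was not tested.

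The families also differed in coverage. In almondfam11, 951 copies (72.1%) were covered in the hybrid and 1164 (88.2%) in almond. It was 12.6% of the listed MITEs but 35.8% of those covered in the hybrid and 25.4% of those covered in almond. Without it, 18.7% of MITEs were covered in the hybrid and 37.4% in almond, and CHH averaged 41.5% in the hybrid and 41.3% in almond. By contrast, 79 of the 1000 copies of SE320200071fam74 were covered in the hybrid (7.90%) and 251 in almond (25.1%).

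One copy of each of the 5 most numerous families shows the levels on a single element. It is the copy nearest the median length that has all 6 values, and the genome build of the coordinates is not given in the sources used here. The almondfam11 copy at Pd01:2820324-2820596 lay wholly inside an LTR record and had 95.8% CG, 84.1% CHG and 22.3% CHH in the hybrid and 95.2% CG, 82.2% CHG and 17.2% CHH in almond. The almondfam7 copy at Pd01:2269047-2269336 had 94.1% CG, 43.0% CHG and 7.32% CHH in the hybrid and 85.9% CG, 40.8% CHG and 6.97% CHH in almond. Both show high CG with low CHH, and they differ in CHG.

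The almondfam16 copy at Pd05:15836181-15836428 had 51.1% CG, 39.98% CHG and 13.4% CHH in the hybrid, and 69.2% CG, 41.4% CHG and 14.5% CHH in almond. Its CG lay below the family means of 83.9% in the hybrid and 87.7% in almond. The SE320200071fam74 copy at Pd05:11328171-11328525, chosen among 3 copies with all values, had 77.0% CG, 97.2% CHG and 84.3% CHH in the hybrid, and 91.7% CG, 96.4% CHG and 77.5% CHH in almond. On that copy all 3 contexts were heavily methylated. Its CHG lay above the family means of 71.8% in the hybrid and 71.8% in almond. The SE320600034fam45 copy at Pd05:10322844-10323253 had 82.5% CG, 51.1% CHG and 52.7% CHH in the hybrid, and 82.0% CG, 50.3% CHG and 50.3% CHH in almond, so its CHH and CHG were level.

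The hybrid and almond were then compared on the same copies, those with a value in both. Over 2462 MITEs CHH averaged 35.0% in the hybrid and 32.8% in almond, a mean difference of 2.24 points ± 8.68, and 862 MITEs (35.0%) were lower in the hybrid. The other TEs differed by 0.709 points ± 4.32 (n = 16201). Without almondfam11, which gave 928 of the 2462 MITEs (37.7%), the mean difference was 1.11 points ± 9.88 and 45.0% of MITEs were lower in the hybrid. Without MITEs that share bases with an LTR record it was 1.44 points ± 9.45 (n = 1508).

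The sign of this difference depended on which copies entered. Over all copies with a value in either genotype, the hybrid mean of 35.3% lay below the almond mean of 36.0%. The 2050 MITEs with a CHH value in almond only averaged 39.9% ± 26.4 in almond, and the 2462 with both values averaged 32.8% ± 23.5. Within families the almond-only copies were higher in 11 and lower in 14 of 25. SE320500139fam126, picked after its values were seen, differed between these sets of copies. It averaged 58.1% in the hybrid (n = 16) and 38.0% in almond (n = 37), yet its 15 copies with both values averaged 56.6% in the hybrid and 52.4% in almond, and its 22 almond-only copies averaged 28.1%.

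CG and CHG were also compared on the same copies. CG averaged 90.0% in the hybrid and 90.7% in almond over 2041 MITEs, a mean difference of -0.651 points ± 8.15 with a median of 0.111. Without almondfam11 the CG difference was -1.26 points ± 10.3 with a median of -0.191 (n = 1143). CHG averaged 68.5% in the hybrid and 68.3% in almond over 2025 MITEs, a difference of 0.191 points ± 9.64.

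A difference of at least 10 points was counted in each direction. In CHH, 304 MITEs (12.3%) were higher by that much in the hybrid and 152 (6.17%) lower, against 3.87% of all TEs higher and 2.07% lower. In CHG, 198 MITEs (9.78%) were higher and 205 (10.1%) lower, against 6.41% and 8.31% of all TEs. In CG, 71 (3.48%) were higher and 121 (5.93%) lower, against 2.64% and 5.86% of all TEs, shares close to the background. Without almondfam11, of whose copies 0.780% were higher and 1.34% lower in CG, the MITE shares were 5.60% higher and 9.54% lower in CG, 13.4% in each direction in CHG, and 13.0% higher and 8.93% lower in CHH. MITEs are shorter than the other TEs and their CHH is higher, and the part of either in the larger shares was not tested.

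By family, the hybrid mean for CHH was above the almond mean in 11 of the 15 families with at least 30 copies with both values, and below it in 4. The difference was largest in SE320300025fam39, which averaged 22.1% in the hybrid and 16.9% in almond, a difference of 5.28 points ± 8.40 (n = 40). In SE320600034fam45 CHH averaged 52.2% in the hybrid and 47.1% in almond, a difference of 5.09 points ± 12.2 (n = 101). In almondfam11 it averaged 24.3% in the hybrid and 20.2% in almond, a difference of 4.10 points ± 5.74 (n = 928), and 756 of its copies (81.5%) were higher in the hybrid. These 3 families lie at the low end and in the middle of the CHH order.

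The 3 most negative differences were smaller. SE320500145fam129 averaged 39.1% in the hybrid and 41.1% in almond, a difference of -1.96 points ± 12.2 (n = 36). SE320500095fam92 averaged 27.3% in the hybrid and 28.9% in almond, a difference of -1.63 points ± 14.9 (n = 41). SE320200071fam74, among the highest families, averaged 75.1% in the hybrid and 76.3% in almond, a difference of -1.11 points ± 11.1 (n = 65). The SD over copies of these differences lay between 5.74 and 14.9 points in the 15 families.

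**Figure D3:**
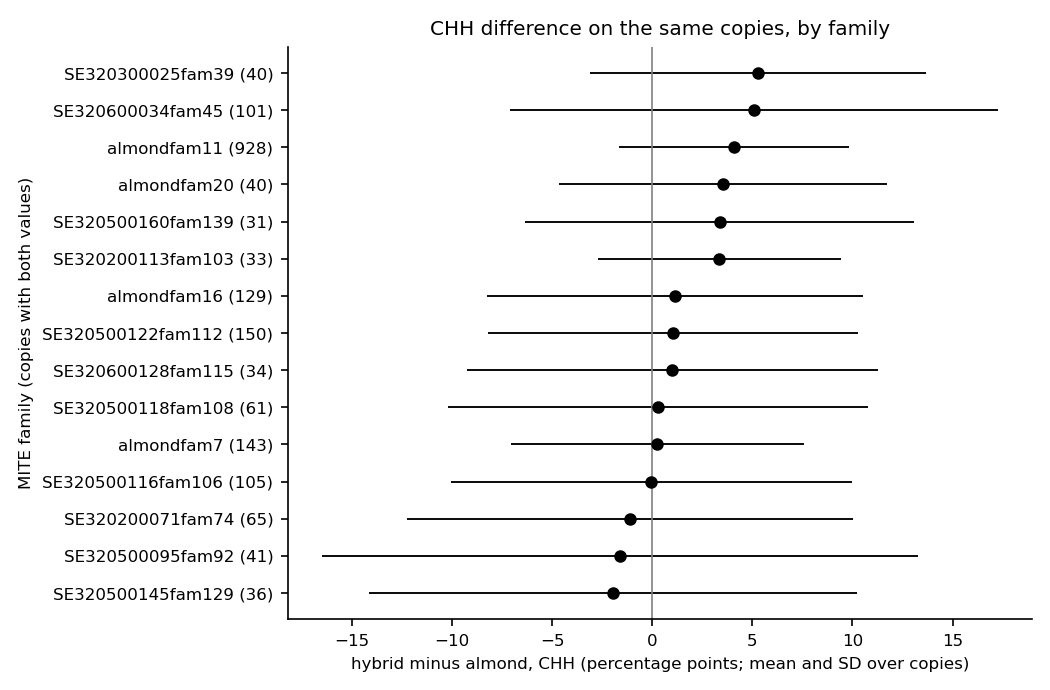
Hybrid minus almond CHH methylation in percentage points over copies with both values, for the 15 families with at least 30 such copies. Points are means, bars the SD over copies, and the copies are counted beside the names. The means run from 5.28 points in SE320300025fam39 to -1.96 in SE320500145fam129, with 11 above 0.

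Single copies kept their rank within a family. Over copies with both values, CHH in the hybrid and in almond had a rho between 0.649 and 0.924 in these 15 families, with a median of 0.849. CHG did so in 10 families, with rho between 0.684 and 0.831. In CG 7 of 10 families had a lower mean in the hybrid, from -3.99 points ± 14.1 in almondfam16 to 1.97 ± 8.13 in SE320500118fam108, the other end of that range. In CHG 7 of 10 were lower in the hybrid, from -1.95 points ± 10.7 in almondfam16 to 1.02 ± 11.7 in SE320300025fam39.

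CHH methylation did not run in one direction with length. MITEs of 150 to under 250 bp averaged 49.1% ± 31.4 CHH in the hybrid (n = 217) and 52.8% ± 30.6 in almond (n = 468). Those of 250 to under 350 bp averaged 27.0% ± 16.8 in the hybrid (n = 1350) and 26.5% ± 19.2 in almond (n = 2056). Those of 350 to under 500 bp averaged 48.9% ± 22.4 in the hybrid (n = 747) and 47.1% ± 24.1 in almond (n = 1405), and those of 500 bp or more 29.5% ± 23.4 in the hybrid (n = 311) and 29.6% ± 23.4 in almond (n = 583). The level thus went down, up and down again along the length classes, and no MITE was under 150 bp.

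The length classes differed in their families. Of the listed copies of 250 to under 350 bp, 32.0% belonged to almondfam11, but its part of the copies with a CHH value was larger. Leaving it out took the class from 1350 to 406 values in the hybrid and from 2056 to 900 in almond. That class then averaged 33.0% in the hybrid and 34.0% in almond. Within families rho between length and CHH was negative in 13 and positive in 12, from -0.362 in SE320500145fam129 to 0.219 in SE320300025fam39.

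The other contexts followed the length classes less. CG averaged between 87.0% and 91.5% in the classes in both genotypes. CHG was lowest in MITEs of 500 bp or more, 58.9% ± 24.7 in the hybrid (n = 238) and 57.0% ± 24.4 in almond (n = 471). Coverage was lowest in the shortest class, where 13.9% of MITEs had a value in the hybrid and 30.3% in almond. The class of 250 to under 350 bp had 33.3% in the hybrid and 50.7% in almond. Without almondfam11 that class had 15.0% in the hybrid and 33.0% in almond. The shortest class then had 13.8% in the hybrid and 30.2% in almond.

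Of the listed MITEs, 9821 lay on the 8 chromosomes and 611 on other sequences. The chromosomes differed little: CHH means lay between 32.8% and 37.8% in the hybrid and between 32.8% and 39.0% in almond, where chromosome 8 was lowest and chromosome 1 highest, as they were without almondfam11 in almond (37.3% and 43.8%). The MITEs on other sequences averaged 28.8% ± 18.2 in the hybrid (n = 145) and 25.5% ± 19.6 in almond (n = 216). From their own family means these differed by -4.79 points in almond, and without almondfam11 they averaged 40.9% in the hybrid (n = 47) and 34.3% in almond (n = 89). On each chromosome the mean CHH difference on the same copies was positive, from 1.53 points on chromosome 3 to 3.38 on chromosome 4, and without almondfam11 from 0.306 points on chromosome 3 to 2.06 on chromosome 4.

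Position along the chromosome was described by 10 equal parts of each chromosome. CHH was lowest in the fourth part, 30.1% in the hybrid and 30.4% in almond, and among the highest in the last, 39.6% in the hybrid and 39.7% in almond. Without almondfam11 the fourth part was still the lowest, 37.8% in the hybrid and 38.2% in almond, but the last was no longer among the highest, 41.5% in the hybrid and 41.3% in almond. Measured from the family means, with almondfam11 included, these parts differed by -3.66 points in the hybrid and -4.27 in almond in the fourth, and by 2.74 in the hybrid and 4.70 in almond in the last. The fourth part also had the largest share of LTR bases around its MITEs, a median of 21.1%, and the last the smallest, 4.42%.

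The share of bases in LTR retrotransposon records within the 1 Mb window around each MITE was therefore used to order the 9821 MITEs into 5 groups of about equal number. It ran from 1.42% to 6.18% in the lowest group and from 19.3% to 34.7% in the highest. CHH averaged 39.7%, 39.97%, 35.3%, 35.0% and 29.95% from the lowest to the highest LTR share in the hybrid, and 40.3%, 40.2%, 36.7%, 34.9% and 30.5% in almond. MITEs in LTR-rich surroundings thus had less CHH methylation in both genotypes.

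The share of almondfam11 moved with this order: it made up 37.6% of the covered MITEs in the group of highest LTR share and 12.2% in the lowest. Without it the almond means were 39.5% in the highest and 41.7% in the lowest group, a far smaller step. Of the almond values left, almondfam7 gave 174 and almondfam16 126 of 755 in the lowest group. In the highest they gave 5 and 2 of 557. The part of these low-CHH families in the smaller step was not tested. A step was also seen within families. Without almondfam11, the mean difference from the family mean was -4.15 points in the highest and 3.25 points in the lowest group in the hybrid, and -4.94 points in the highest and 4.28 points in the lowest group in almond.

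**Figure D4:**
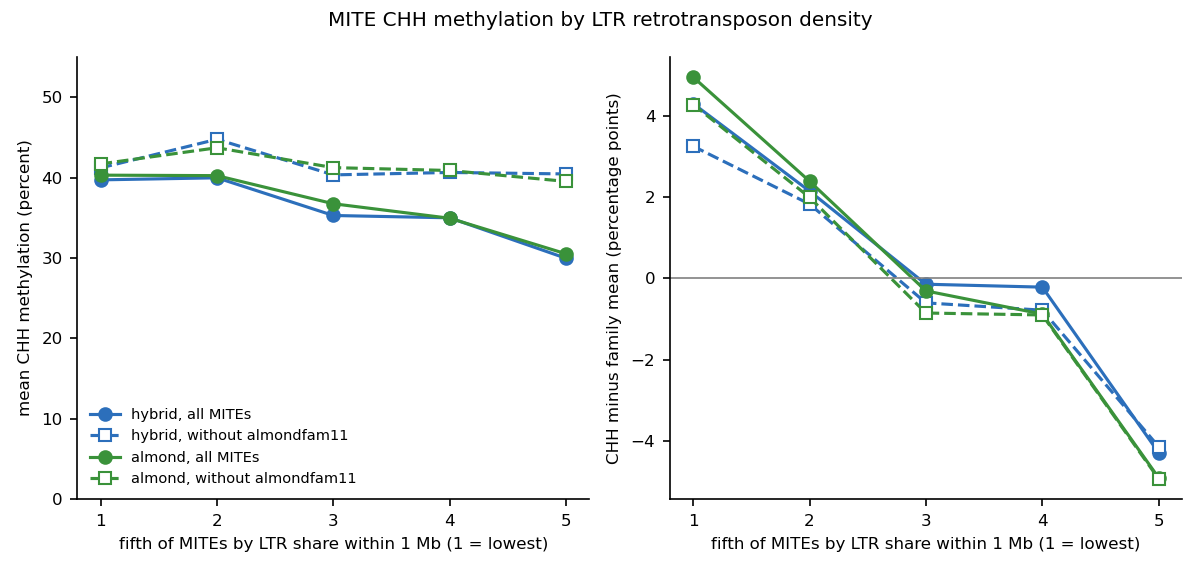
MITE CHH methylation over 5 groups of MITEs by the LTR retrotransposon share within 1 Mb, from the lowest (1) to the highest (5), in the hybrid (blue) and almond (green). The left panel gives mean levels in percent and the right the mean difference from the family mean in percentage points; open squares leave out almondfam11. Without that family the levels are nearly flat (41.7% and 39.5% in almond at the ends), while the differences from the family means still go from 4.28 to -4.94 points in almond.

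The same order was seen inside single families. In almond 21 of the 25 families had a negative rho between LTR share and CHH, with a range from -0.523 to 0.0617. Of the 14 families with at least 10 almond values in both end groups, 12 had the lower mean in the highest. In almondfam11 the group of highest LTR share averaged 19.9% ± 8.13 in the hybrid (n = 283) and 15.7% ± 6.51 in almond (n = 339), and the lowest 33.2% ± 14.5 in the hybrid (n = 79) and 30.3% ± 14.4 in almond (n = 106).

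Families with high CHH differed by place too. In SE320200071fam74 the highest group averaged 74.8% ± 12.9 in the hybrid (n = 14) and 63.8% ± 16.4 in almond (n = 43), and the lowest 80.6% ± 12.8 in the hybrid (n = 19) and 80.4% ± 10.2 in almond (n = 51). In SE320600034fam45 the highest group averaged 45.5% ± 19.5 in the hybrid (n = 29) and 36.2% ± 23.4 in almond (n = 38), and the lowest 54.4% ± 23.7 in the hybrid (n = 17) and 55.3% ± 23.9 in almond (n = 26). SE320500145fam129 went the other way in almond, with 53.2% ± 27.0 (n = 14) in the highest and 33.5% ± 31.3 (n = 11) in the lowest group.

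The difference between the genotypes also varied with the surroundings. On the same copies, hybrid minus almond CHH averaged 1.35, 0.947, 1.98, 2.68 and 3.60 points from the lowest to the highest LTR share, with SDs over copies between 7.99 and 9.48 points. Without almondfam11 the values were 0.765, -0.0613, 1.06, 1.33 and 2.88 points. In both series the highest group had the largest difference. CG means over the 5 groups lay between 87.0% and 91.3% in the hybrid and between 88.5% and 92.1% in almond, and the CHG means stayed between 65.2% and 69.6% in both genotypes.

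Of the 20 families with SE32 names, 17 also had at least 30 covered copies in the peach genome, found by the identifier before the fam number. Their CHH means in almond and in peach had a rho of 0.907, and the hybrid's means on the almond and on the peach genome one of 0.968. Both hybrid means rest on the same libraries, whose reads could map to either genome, so their rho does not compare separate measurements. Almond was below peach in 13 of the 17 families in CHH, with a median difference of -2.09 points, and in 14 of 17 in CHG, with a median of -6.00 points. The widest CHH gap was in SE320500139fam126, named after its values were seen, with 38.0% in almond and 52.4% in peach. In almond its 15 copies that also had a hybrid value averaged 52.4%, and its 22 almond-only copies 28.1%. Next came SE320200071fam74, with 72.3% in almond and 65.6% in peach. These are different copies in the 2 genomes, aligned separately, so the values stand side by side without a test.

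**Figure D5:**
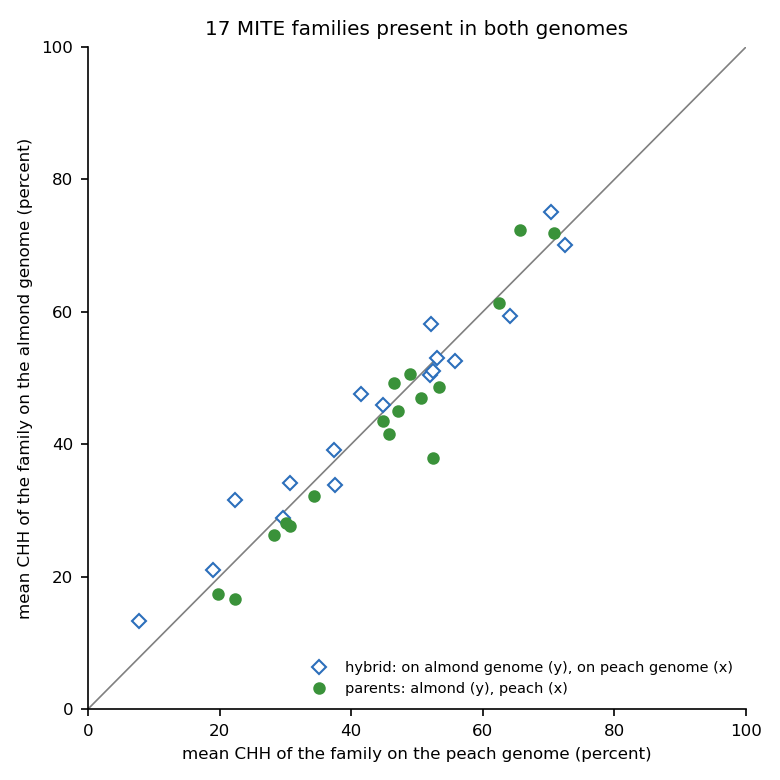
Mean CHH methylation in percent of the 17 MITE families found in both genomes, on the almond genome (vertical axis) against the peach genome (horizontal axis). Open diamonds are the hybrid, from the same libraries on both axes, and filled circles the parents, with the line of equal values. The families lie along the line, with SE320500139fam126 the farthest below it among the parents, at 38.0% in almond and 52.4% in peach.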

How the data were processed

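Methylation was measured in leaves by whole genome bisulphite sequencing, with 2 libraries per genotype. Before depositing them, the authors used Bismark 0.19.1 for alignment, kept unique best alignments and cytosines read at least 3 times, and turned the calls into percentages per TE with SeqMonk. The deposited values are percent values, 1 per TE, context and genotype, so depth is unknown and no interval is given. The raw read counts of RNA-seq, which the authors made per transcript or TE representative, hold 2 MITE rows. These counts, of 3 libraries per genotype, were not normalized when deposited. The authors' rlog values on the log2 scale were not used, and columns of other samples numbered 0. Genotypes were taken from the labels.

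From the percentages, means, medians, SDs over copies and differences (hybrid minus almond) were computed in scipy 1.17.1, numpy 2.4.6 and pandas 2.3.3 under Python 3.11.15 (plots: matplotlib 3.10.9). A copy was covered with a value in at least 1 context. LTR share used a 1 Mb window and the table's own LTR records. The families named are the 5 with most copies, the 5 highest and 5 lowest in CHH, the 2 lowest in CG, the 2 highest and 2 lowest in CHG, and the 3 most positive and 3 most negative CHH differences. Members, families and lists were chosen with earlier results of these data known. Scripts were tested on simulated data. Alternatives were medians, length weights, matched copies, subsets by length, chromosome and overlap, and other thresholds. Incomplete bisulphite conversion raises all percentages and was not corrected here. The study reports a lower conversion rate for almond than for the hybrid and peach, so almond values can be raised more. The part of this in the differences between genotypes was not tested. No genome sequence was used here, so no MITE sequence is shown.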

Additional observations from a re-analysis of the deposited data

Results flagged for a closer look

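RNA-seq counts, outside the methylation comparisons, contained reads on 2 rows named MITE. MITE_108 had 8, 66 and 38 counts in the hybrid libraries, 24, 24 and 60 in almond, and 16, 6 and 16 in peach. The highest per genotype (66 in the hybrid, 60 in almond, 16 in peach) lay above the limit of 3 for a count of 0. As counted, so did every other, the lowest at 6. That limit holds only for independent counts. All counts on both MITE rows are even, and whether a read pair was counted as 2 was not tested. For MITE_127 the hybrid libraries had 2, 4 and 6 counts, the almond libraries 10, 12 and 6, and the peach libraries 10, 44 and 0, so that in almond the highest reached 12. Library totals lay between 14971526 and 35450910 counts, so these rows are a trace of the transcripts. The rows carry no fam number and were not tied to a MITE family described here.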

How the results depend on the processing

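Of 115 alternative values for 19 results, 77 stayed within tolerance (2 points for a level, 1 point for a difference, 1.5 times for a count or share, 0.1 for rho), 34 moved and 4 had the other sign. As medians, MITE levels were 94.0% in the hybrid and 94.0% in almond for CG, 72.5% in the hybrid and 71.5% in almond for CHG, and 28.5% in the hybrid and 27.7% in almond for CHH. The mean almond CHH over copies with both values was 32.8%. Leaving out almondfam11, chosen after seeing the data, gave 87.4% CG in the hybrid, 63.8% CHG in the hybrid and 63.6% in almond, and 41.5% CHH in the hybrid and 41.3% in almond. Leaving out MITEs that share bases with an LTR record, also chosen after seeing the data, gave 65.3% CHG in the hybrid and 64.0% in almond, and 38.6% CHH in the hybrid and 38.4% in almond.

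The mean hybrid minus almond difference turned to 0.111 points for CG as a median, to -0.398 for CHG with equal weight to each family, and to -0.675 for CHH over all copies with a value. For CHG it was 1.25 over all copies with a value, and for CHH 1.11 without almondfam11. A CG difference of at least 20 points was found in 3.48% of MITEs and of at least 5 points in 24.6%, against 5.23% and 46.6% for CHG, and 4.22% and 47.4% for CHH. By 10 points or more in CG they were 15.1% without almondfam11, against 9.41% with it.

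The range of almond family CHH values, 64.2 points, was 75.1 with medians, 60.5 over copies with both values and 60.3 for copies of 200 to 400 bp. The CHH difference between MITEs of 250 to under 350 bp and of 350 to under 500 bp in almond, -20.6 points, was -23.9 over copies with both values, -28.3 as medians, -13.0 without almondfam11 and 0.0361 from family means, which takes out much of the length with the family, as most families span few lengths. The almond CHH difference between the groups of highest and lowest LTR share, -9.79 points, was -11.7 with a 500 kb window, -12.7 over copies with both values and -2.18 without almondfam11.

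No paired analysis was possible because the tables hold 1 combined value per genotype, and for the same reason no library was left out. Distance to the nearest gene was not run, because no annotation was named as being of the build of these files. Depth per copy is unknown, so no filter on reads per copy was run.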

Other observations

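The 95 families with fewer than 30 covered copies were not described one by one, and 9 of the 120 families had no covered copy in almond. In SE320200113fam103, 33 of 50 copies were covered in the hybrid (66.0%) and 43 in almond (86.0%), and in SE320500118fam108, 63 of 95 in the hybrid (66.3%) and 83 in almond (87.4%). Both were picked after their values were seen, as the families nearest to almondfam11 in coverage. In most families the copies with more CG did not have more CHH: rho in almond was positive in 6 of the 20 families with at least 30 such copies, with a range from -0.462 to 0.250 and a median of -0.23.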
